A study of Mus musculus with 8 samples.

Results

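The 36 genes described here are interferon-stimulated genes, that is, genes whose transcription is switched on when a cell receives an interferon. They were taken from a list of names by a rule that uses no measured value, although the list was drawn up with earlier results of these data known. All 36 were found among the 22206 probe sets of the table, each as 1 probe set that names that gene alone. They were measured in gastrocnemius (GAS) muscle of male C57/Bl6j mice, aged 22 weeks, 12 weeks after an intramuscular injection of adeno-associated virus (AAV) of serotype 1. In the MYTHO-KD group (4 muscles) the virus delivered an sh-RNA (short hairpin RNA) that targets MYTHO, and in the scramble group (4 muscles) it carried a scramble sh-RNA, each under the U6 promoter, which is active in any cell that takes up the virus. The scramble virus was given in the opposite leg of the same mice, at about 10 weeks of age, so the muscles of both groups had received AAV and a hairpin. Only a difference between the hairpins can be seen in this comparison, since muscle without AAV is not analysed here.

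Cells that meet a virus sense its DNA or RNA through receptors such as the Toll-like receptors in endosomes or the RIG-I-like receptors in the cytosol, and then secrete type I interferons (interferon alpha and beta). These bind a receptor made of IFNAR1 and IFNAR2 on the same or neighbouring cells, and the kinases JAK1 and TYK2 then activate a transcription factor complex that holds STAT2 and IRF9 and binds a DNA element called the interferon-stimulated response element (ISRE). The genes behind it encode proteins that block viral entry, replication and translation, together with sensors and regulators that amplify or end the response. Interferon gamma, made by lymphocytes, acts through a different receptor and a DNA element called the gamma-activated site (GAS element).

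The promoters of the members were searched for both elements, through which the interferons act on their target genes. RefSeq promoter sequences (mouse build GRCm38.p6, 250 bases before to 50 bases after each transcript start) were used for 26 of the 36 members, that is, all but *Usp18*, *Oas2*, *Mx1*, *Mx2*, *Rtp4*, *Dhx58*, *Zbp1*, *Ifi27l2a*, *Parp9* and *Parp14*. The ISRE core was spelled as 2 copies of GAAA with any 2 bases between them and searched on both strands. It was present in 14 of these 26 genes, or 53.8%, beside 3.99% of the 27025 genes in the promoter table. The GAS element, spelled TTCNNNGAA, which reads the same on both strands, was present in 6 of the 26 genes (23.1%) beside 9.55% of all genes. In 2 member promoters the matches to these elements overlapped. The following stretches are examples from the 14 members with a core, with each ISRE core, or its reverse complement, in capitals. For *Ifitm3* the matches lie just behind the annotated start, and only the matched span is given.
Isg15, chr4:156200855-156200916, minus strand: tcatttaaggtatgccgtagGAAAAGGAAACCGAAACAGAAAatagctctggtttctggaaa
Ifit1, chr19:34640765-34640833, plus strand: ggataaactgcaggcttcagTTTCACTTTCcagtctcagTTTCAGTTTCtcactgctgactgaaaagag
Oas1a, chr5:120907526-120907565, minus strand: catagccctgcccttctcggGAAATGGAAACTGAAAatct
Ifitm2, chr7:140955978-140956027, minus strand: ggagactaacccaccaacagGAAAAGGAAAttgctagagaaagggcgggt
Ifitm3, chr7:141010716-141010742, minus strand: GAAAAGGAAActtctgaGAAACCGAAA
Bst2, chr8:71537567-71537622, minus strand: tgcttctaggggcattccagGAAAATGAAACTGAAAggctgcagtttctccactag
The *Isg15* stretch holds 3 overlapping cores, while *Ifitm2* holds 1. A match is a description of the letters and does not show that a factor binds there.

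**Figure D1:**
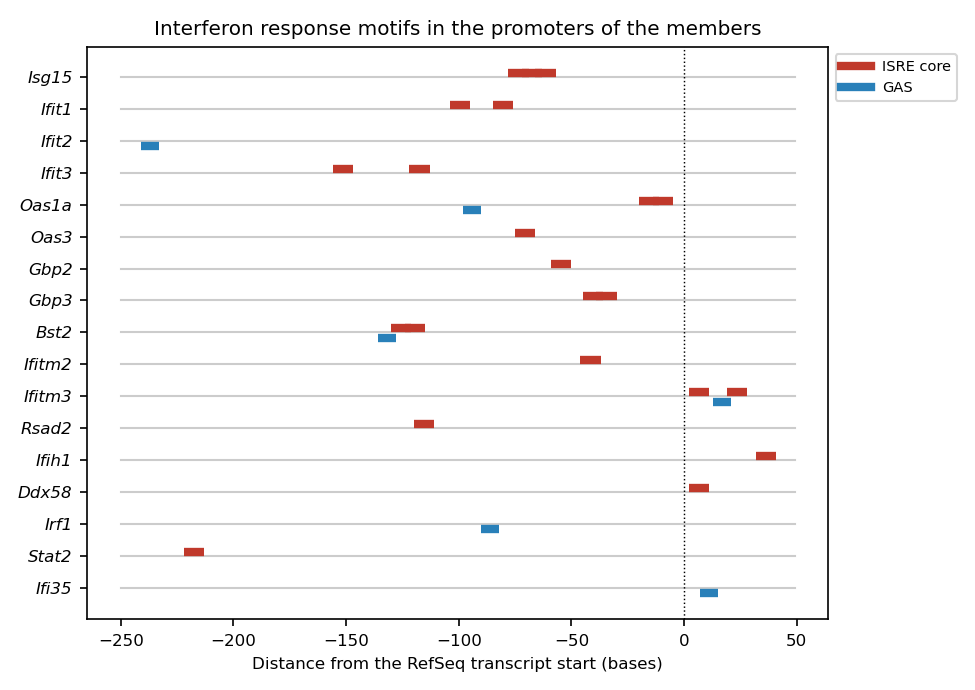
Matches to the ISRE core (red) and the GAS element (blue) along the promoters of the members that hold at least 1 match. The x axis is the distance from the RefSeq transcript start in bases, with the start at the dotted line. Most ISRE cores lie before the start, whereas those of *Ifitm3*, *Ddx58* and *Ifih1* lie behind it.

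The 36 genes did not move as a group. In MYTHO-KD 21 of the 36 (58.3%) had the higher average, beside 46.9% of all probe sets, while 12 were lower and 3 had the same average as in scramble. The median difference was 0.07 on the log2 scale, beside -0.01 over all probe sets. By the rule of the study, at least 2-fold with an unadjusted p under 0.05, 0 members were called, beside 1.12% of all probe sets. In limma's moderated test an unadjusted p under 0.05 went with 3 members that were higher (*Oas2*, *Ifitm2* and *Ifitm3*), beside 6.48% of all probe sets, and 1 that was lower (*Oas1a*), beside 5.52%. These 4 were also the members at 1.5-fold or more, which 5.80% of all probe sets reached together with such a p (3.54% higher and 2.25% lower). The group averages lay further apart than the sum of both SDs for 3 members (*Oas1a*, *Oas2* and *Ifitm3*), beside 7.99% of all probe sets. The limma p-values adjusted over all 22206 probe sets were under 0.05 for 0 members (0.275% of all probe sets passed), and the lowest adjusted p in the list was 0.199. The 4 members with an unadjusted p under 0.05 make 11.1% of the list, which is near the sum of the shares of the whole array in both directions. With 1.5-fold required as well, the same 11.1% stands beside 5.80% of all probe sets. As a check of the labels, the targeted gene, listed as *D230025D16Rik*, had an average of 7.71 in MYTHO-KD and 10.02 in scramble (difference -2.31, adjusted p = 0.0138, limma). All 8 muscle fibre markers looked at had averages above 17 in both groups. *Acta1*, *Myh4* and *Atp2a1* stood at 19.93, the highest average of all probe sets, with an SD of 0.0 in both groups. A difference could not be seen there. *Mb* had 19.75 in MYTHO-KD and 18.82 in scramble (difference 0.93, adjusted p = 0.0754, limma). The remaining markers differed by -0.15 to 0.05.

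The values behind these counts are the authors' average and standard deviation (SD) of each group, on the log2 scale of the array software, so single muscles cannot be shown. A difference of 1 on this scale is 2-fold. Averages of the members ran from 3.32 (*Oasl1*) to 13.89 (*Ifitm2*), but signals of different probe sets are not amounts of RNA that can be set against each other. The median SD of the members was 0.31 in MYTHO-KD and 0.275 in scramble, beside 0.27 in either group over all probe sets. The 95% interval of a member's difference reached from 0.312 to 0.641 to either side. For 29 of the 36 members (80.6%) the whole interval lay within 2-fold in either direction, beside 89.2% of all probe sets. The other 7 were *Oas1a*, *Oas2*, *Oasl2*, *Ifitm2*, *Ifitm3*, *Irf7* and *Ifi44*. With 4 arrays a group, their number sets how precise these values can be.

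**Figure D2:**
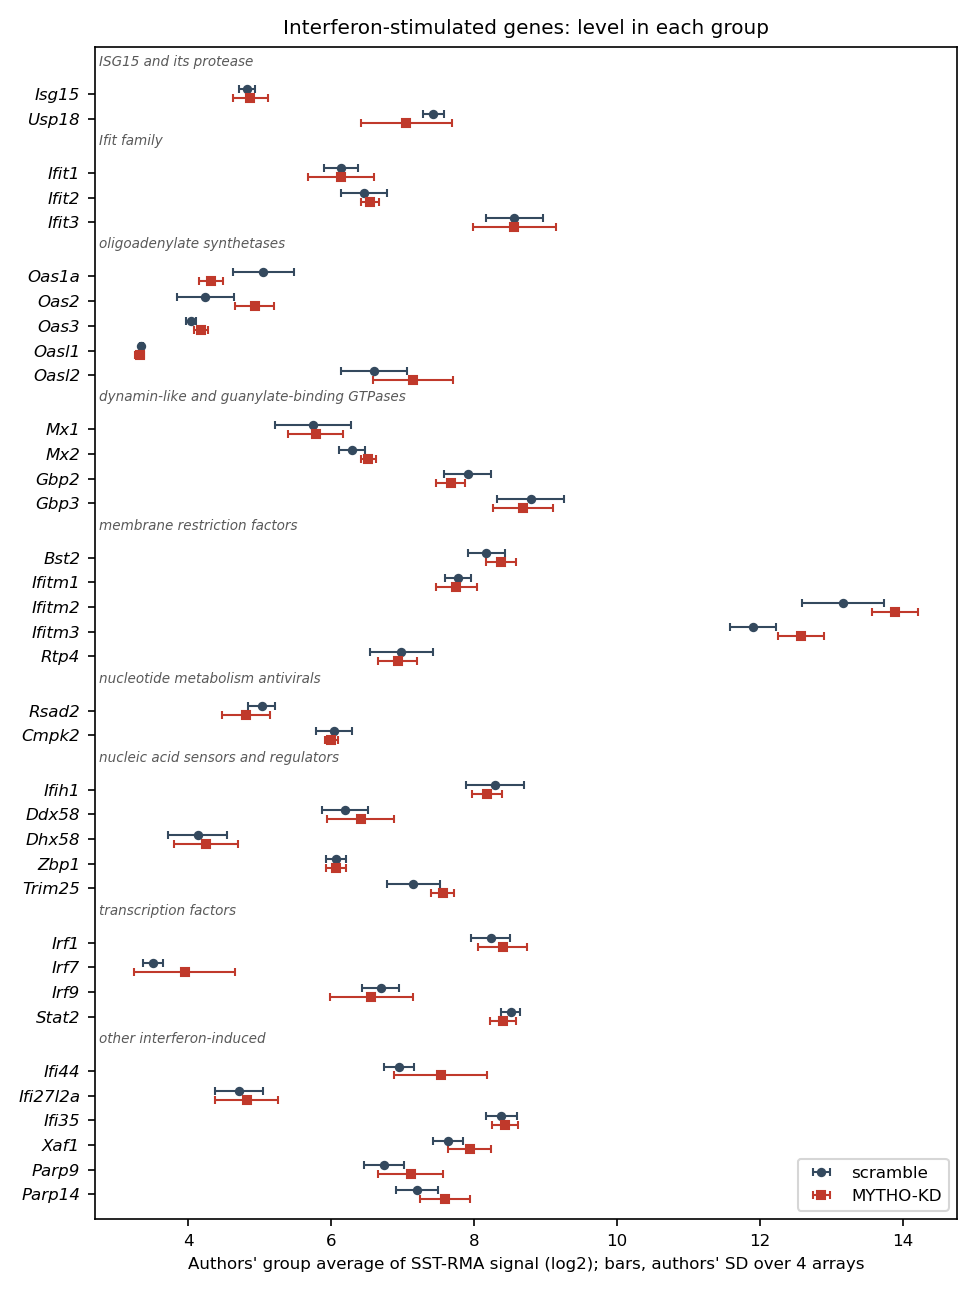
Group averages of the 36 members (x axis, log2 signal) for scramble (dark circles) and MYTHO-KD (red squares), with bars of 1 SD over 4 arrays as given by the authors. The bars of the groups lie apart for *Oas1a*, *Oas2* and *Ifitm3* and overlap or touch for the other 33 members.

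ISG15 is a ubiquitin-like protein that is attached to other proteins during an interferon response, and USP18 is the protease that removes it and also shuts off the type I receptor. *Isg15*, which lies on chromosome 4 from 156199424 to 156200818 (coordinates of the table, mm10), had averages of 4.87 (SD 0.24) in MYTHO-KD and 4.82 (SD 0.11) in scramble. The difference of 0.05 had a 95% interval from -0.32 to 0.42. Both averages of *Isg15* lay below 5.715, the 30th percentile of all probe sets, where probes respond least. *Usp18* had averages of 7.05 and 7.43, and its SD was 0.64 in MYTHO-KD but 0.15 in scramble. Its difference was -0.38 (interval -0.98 to 0.22, adjusted p = 0.642, limma). Neither gene of this pair differed beyond the spread between muscles.

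The IFIT proteins bind viral RNA that lacks the cap structure of host RNA and stop its translation. Their genes are among the most inducible interferon targets and lie together on chromosome 19. *Ifit1* had the same average of 6.14 in both groups, with SDs of 0.46 and 0.24. *Ifit3* likewise had 8.56 in both groups, with SDs of 0.58 and 0.40. *Ifit2* had averages of 6.54 and 6.46, with SDs of 0.13 and 0.32. The family thus showed differences between 0.00 and 0.08. The *Ifit1* and *Ifit3* promoters carry 2 ISRE cores each. A close copy of *Ifit3* lies in the same cluster and can bind its probes.

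The oligoadenylate synthetases are sensors of double-stranded RNA that make a messenger activating RNase L, and 2 of the 5 members of this family stood apart, in opposite directions. *Oas1a*, on chromosome 5 from 120896256 to 120907525, had averages of 4.32 (SD 0.17) in MYTHO-KD and 5.05 (SD 0.43) in scramble. The ranges of 1 SD did not meet, and MYTHO-KD was the lower group. The difference of -0.73 left 60.3% of the scramble signal (standard error 0.217, adjusted p = 0.199, limma). *Oas2*, on the same chromosome from 120730333 to 120749853, went the other way, with averages of 4.93 and 4.24 and SDs of 0.27 and 0.40. Here MYTHO-KD was the higher group, by 1.61-fold (difference 0.69, standard error 0.222, adjusted p = 0.234, limma). Neither passed the adjustment. Whether these opposite directions differ from each other was not tested, since both genes were measured on the same arrays and their covariance is not in the table. Both signals lay below 5.715, the 30th percentile of all probe sets, where probes respond least. Of the remaining family, *Oasl2*, a relative with a ubiquitin-like tail, had a difference of 0.55 (interval -0.09 to 1.19). The differences of *Oas3* (0.14) and *Oasl1* (-0.02) were smaller, and the software marked *Oasl1* as not expressed in either group. The signals of *Oas3* and *Oasl1* lay below 5.715 too. The other members of the OAS1 gene family are alike in sequence to *Oas1a* and can bind its probes, which makes this gene's value less certain.

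The Mx proteins and the guanylate-binding proteins are GTPases that trap viral capsids or attack the membranes around pathogens. None of the 4 members differed beyond the spread between muscles. The highest difference was that of *Mx2*, 0.23, with averages of 6.52 in MYTHO-KD and 6.29 in scramble (interval -0.12 to 0.58, adjusted p = 0.626, limma). The lowest was that of *Gbp2*, -0.24, with averages of 7.67 and 7.91 (interval -0.67 to 0.19, adjusted p = 0.696, limma). *Mx1* (0.04) and *Gbp3* (-0.10) lay between them. In laboratory C57BL/6 mice the *Mx1* gene is known to be defective, which concerns its protein and not this comparison.

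The proteins that act at membranes held 2 of the 3 members that were higher with an unadjusted p under 0.05 in limma's test. IFITM proteins sit in the plasma and endosomal membranes and hinder viral fusion, and their genes lie side by side on chromosome 7. *Ifitm3*, from 141009586 to 141010770, had an average of 12.58 in MYTHO-KD and 11.90 in scramble, with an SD of 0.32 in both. The ranges of 1 SD did not overlap, and the difference was 0.68, or 1.60-fold (standard error 0.214, adjusted p = 0.223, limma). *Ifitm2*, from 140954837 to 140955961, had averages of 13.89 and 13.16, with SDs of 0.32 and 0.57. Its difference of 0.73, or 1.66-fold, came with a standard error of 0.272 and an adjusted p of 0.317 in limma's test, and the ranges of 1 SD overlapped. *Ifitm1*, which lies between these genes from 140967221 to 140969827, had averages of 7.75 and 7.77. Its difference of -0.02 had an interval from -0.43 to 0.39, which excludes the point estimates of its neighbours, but the difference between the 3 genes was not tested. The 250 bases before and 50 bases behind the *Ifitm1* start held no match to either element. *Ifitm2* and *Ifitm3* are alike in sequence, and probes of one can bind transcripts of the other. *Bst2*, whose product tethers budding virus particles to the cell, had a difference of 0.20 (averages 8.37 and 8.17, interval -0.20 to 0.60). *Rtp4*, a chaperone of receptors that also restricts viral RNA, had the lowest difference of this group, -0.05.

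Viperin, encoded by *Rsad2*, makes a chain-terminating nucleotide that stops viral polymerases, and CMPK2 supplies its substrate. The genes are neighbours on chromosome 12. *Rsad2* had averages of 4.81 in MYTHO-KD and 5.03 in scramble (difference -0.22, interval -0.65 to 0.21). These averages lay below 5.715, where probes respond least. *Cmpk2* differed by -0.04 (interval -0.41 to 0.33), with SDs of 0.09 and 0.25. Both points lay below 0 and within the spread between muscles.

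Among the sensors and their regulators, 0 of 5 members had an unadjusted p under 0.05, with limma. Over all probe sets 6.48% were higher with such a p and 5.52% lower, so 0 of 5 does not set this group apart. MDA5, encoded by *Ifih1*, and RIG-I, encoded by *Ddx58*, recognise long and 5′-triphosphate RNA, and they are among the cytosolic sensors of double-stranded RNA. *Ifih1* had averages of 8.18 and 8.29 (difference -0.11, the lowest of the group) and *Ddx58* had 6.41 and 6.19 (difference 0.22). LGP2, encoded by *Dhx58*, modulates both, and its difference was 0.12, at signals below 5.715. *Zbp1*, a sensor of Z-form nucleic acid that can start necroptosis, had 6.06 in both groups. The highest difference was that of *Trim25*, the ubiquitin ligase that activates RIG-I, with averages of 7.56 in MYTHO-KD and 7.15 in scramble and SDs of 0.16 and 0.37. Its difference of 0.41 had an interval from -0.03 to 0.85 (adjusted p = 0.448, limma).

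None of the transcription factors of the response differed beyond the spread between muscles. *Stat2* and *Irf9*, which are parts of the ISRE-binding complex, had differences of -0.11 (averages 8.40 and 8.51) and -0.13 (averages 6.56 and 6.69). *Irf1*, which acts early and mainly after interferon gamma, had averages of 8.40 and 8.23 (difference 0.17). *Irf7*, the factor that amplifies interferon alpha production, had averages of 3.95 and 3.51, and its SD was 0.71 in MYTHO-KD against 0.14 in scramble. The software marked it as not expressed in either group, and the difference of 0.44 had an interval from -0.20 to 1.08 (adjusted p = 0.608, limma). In all 4 factors the SD was larger in MYTHO-KD. Over all 36 members this was so for 20 genes, or 55.6%, beside 48.1% of all probe sets.

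The 6 remaining members were all higher in MYTHO-KD, with differences from 0.05 to 0.58 and a median of 0.34. None of them reached an unadjusted p under 0.05. Since only 6.48% of all probe sets were higher with such a p, its absence in 6 genes does not set them apart. *Ifi44*, an interferon-induced gene named from hepatitis C studies, had averages of 7.53 in MYTHO-KD and 6.95 in scramble. Its SD was 0.65 in MYTHO-KD and 0.21 in scramble, and the difference of 0.58 had an interval from -0.03 to 1.19 (adjusted p = 0.442, limma). *Parp14* and *Parp9*, ADP-ribosyltransferases encoded near each other on chromosome 16, had differences of 0.39 (averages 7.59 and 7.20) and 0.37 (averages 7.11 and 6.74). *Xaf1*, which favours apoptosis, had a difference of 0.31. *Ifi27l2a* (0.11) and *Ifi35* (0.05) had the smallest, and the signals of *Ifi27l2a* lay below 5.715.

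**Figure D3:**
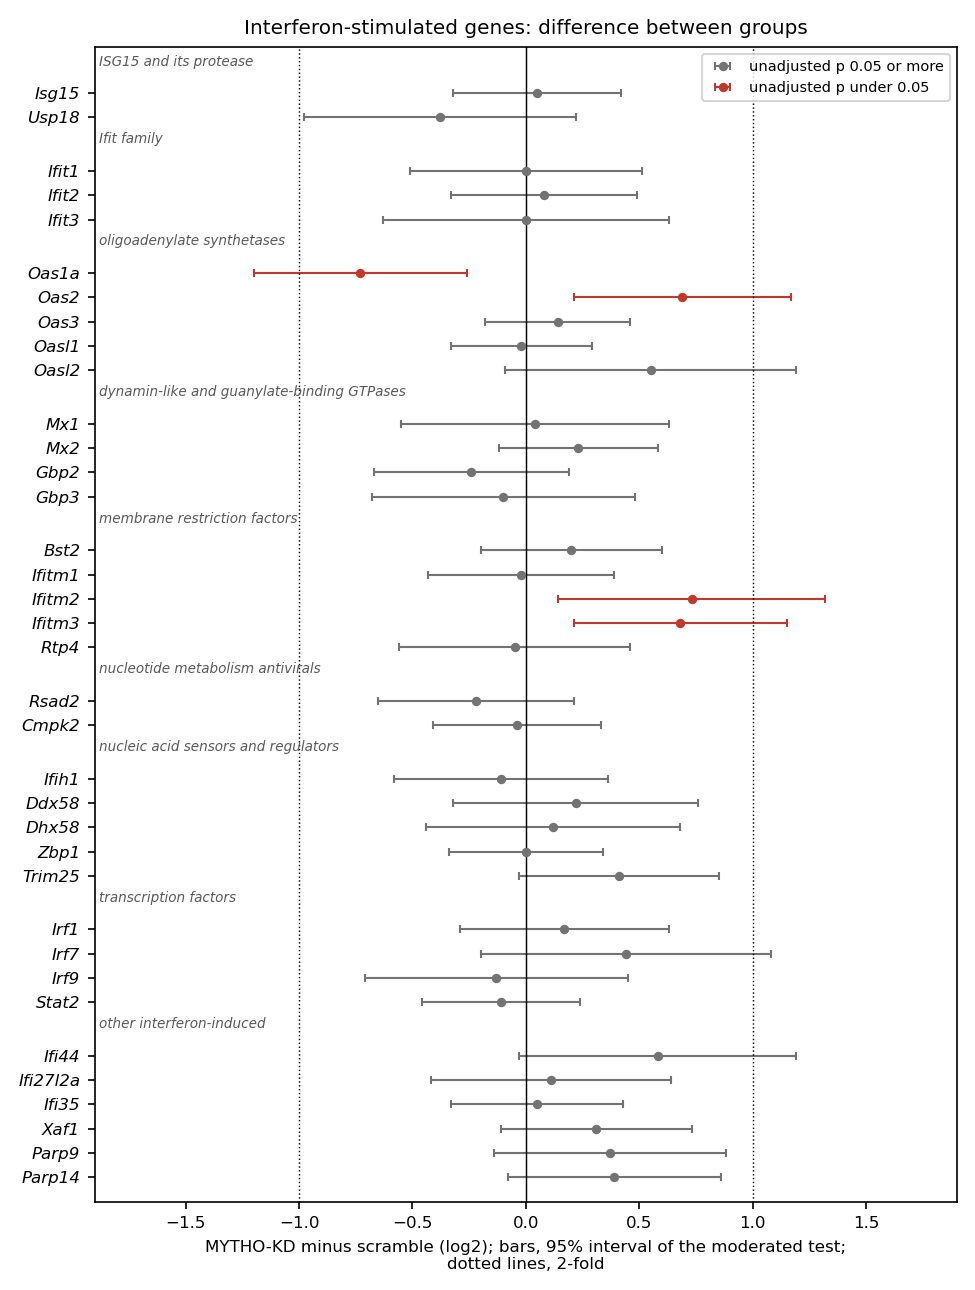
Difference between the group averages for the 36 members (x axis, MYTHO-KD minus scramble, log2) with the 95% interval of limma's moderated test. The 4 members in red have an unadjusted p under 0.05, and the dotted lines mark 2-fold. All 36 points lie between -0.73 and 0.73.

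Members with and without an ISRE core in the promoter can be set side by side. The 14 with a core had a median difference of 0.00, with 6 higher and 6 lower, and the 12 without one had a median of 0.13, with 8 higher and 4 lower. Across the array, the 594 measured genes with a core had a median of 0.01, and 71 of them had an unadjusted p under 0.05. The 14947 measured genes without a core had a median of -0.01, and 1836 of them, or 12.3%, had such a p. These are descriptions, and genes are not independent replicates.

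A second list of 79 interferon pathway genes, none of them a member, was looked at by step. Over the list, 13 genes had an unadjusted p under 0.05 and were higher in MYTHO-KD, beside 6.48% of all probe sets, and 3 were lower, beside 5.52%. The median difference was 0.04. By the 2-fold rule 3 genes were called higher (*Tlr7*, *Ticam1* and *Ifi203*), beside 0.860% of all probe sets, and 0 were called lower, beside 0.257%. After adjustment over all probe sets 0 passed 0.05 in limma's moderated test.

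The interferons themselves gave no common direction. Of 10 ligand genes 3 were higher and 7 lower, with a median difference of -0.14. *Ifnb1*, encoding interferon beta, had averages of 5.18 in MYTHO-KD and 5.51 in scramble (difference -0.33). *Ifng*, encoding interferon gamma, had 6.35 and 6.77 (difference -0.42). *Ifne*, encoding the interferon of the reproductive tract, had the highest difference of the ligands, 0.54, with averages of 4.69 and 4.15 (adjusted p = 0.216, limma). The signals of *Ifne* and *Ifnb1* lay below 5.715 in both groups.

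The receptors stood higher, with a median difference of 0.42 over 6 genes. *Ifnar2* had averages of 9.47 (SD 0.23) and 8.97 (SD 0.11) (difference 0.50, adjusted p = 0.258, limma). *Il10rb*, a subunit shared by the receptors of interferon lambda and interleukin 10, had averages of 8.80 and 8.24 (difference 0.56, adjusted p = 0.295, limma). *Ifngr2* had 11.87 and 11.44 (difference 0.43, adjusted p = 0.373, limma). Together with *Ifnar1* (7.59 and 7.18, difference 0.41), these are the 4 receptor genes that lie in a row on chromosome 16, between 91372783 and 91565169, and all 4 were higher. The receptor genes elsewhere, *Ifngr1* and *Ifnlr1*, had differences of 0.09 and -0.22. No receptor passed the adjustment.

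Of the kinases and STATs, *Stat3*, which also serves interleukin 6 signalling, had averages of 9.46 and 8.78 (difference 0.68, adjusted p = 0.233, limma). *Jak2* and *Tyk2* had differences of 0.39 (adjusted p = 0.585, limma) and 0.27 (adjusted p = 0.725, limma). *Jak1* differed by -0.09. Of 7 inhibitors, *Ptpn11*, a phosphatase, was lower with an unadjusted p under 0.05, beside 5.52% of all probe sets (difference -0.44, adjusted p = 0.410, limma). The feedback inhibitors *Socs1* and *Socs3* had differences of -0.04 and 0.02, but both signals lay below 5.715, and the software marked *Socs1* as not expressed in either group.

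The genes that lead to interferon production held 2 of the 3 pathway genes called by the 2-fold rule. *Tlr7*, the endosomal receptor of single-stranded RNA, had averages of 7.54 (SD 0.27) in MYTHO-KD and 6.32 (SD 0.50) in scramble. The difference of 1.22, or 2.33-fold, had an adjusted p of 0.0742 in limma's test. *Ticam1*, the adaptor TRIF of the double-stranded RNA receptor TLR3, had averages of 7.68 and 6.66, with SDs of 0.22 and 0.40 (difference 1.02, adjusted p = 0.0811, limma). *Tmem173*, encoding STING, the adaptor of cytosolic DNA sensing, and *Unc93b1*, which escorts Toll-like receptors to endosomes, were smaller, at 0.61 (adjusted p = 0.312, limma) and 0.60 (adjusted p = 0.393, limma). *Tlr9*, the receptor of unmethylated DNA known to sense AAV genomes, had averages of 4.55 and 4.65 (difference -0.10, adjusted p = 0.928, limma). Its adaptor *Myd88* differed by 0.14, and *Mb21d1*, encoding the cytosolic DNA sensor cGAS, by 0.13. The signals of *Tlr9* and *Mb21d1* lay below 5.715, where probes respond least. In all, 4 of 14 genes of this step were higher with an unadjusted p under 0.05, beside 6.48% of all probe sets.

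Of 22 further genes induced by type I interferon, 11 were higher and 11 lower, with a median of 0.01. *Ifi203*, a DNA-binding protein of the p200 family, had averages of 10.80 in MYTHO-KD and 9.73 in scramble (difference 1.07, adjusted p = 0.152, limma). *Lgals9*, encoding galectin 9, had 9.79 and 8.91 (difference 0.88, adjusted p = 0.262, limma). *Slfn2* (0.60) and *Adar* (0.42) were also higher with an unadjusted p under 0.05, and *Lgals3bp* (-0.55) was lower. The averages of *Slfn2*, 5.85 in MYTHO-KD and 5.25 in scramble, had a mean below 5.715. *Ifi204*, a neighbour of *Ifi203* on chromosome 1, differed by 0.39 (adjusted p = 0.591, limma), and genes of this family are alike in sequence. Of 15 genes induced mainly by interferon gamma, *Iigp1*, an immunity-related GTPase, was the only one with an unadjusted p under 0.05. It was lower, with averages of 9.47 and 10.27 (difference -0.80, adjusted p = 0.291, limma). Over all probe sets 5.52% were lower with an unadjusted p under 0.05, and 6.48% were higher. The chemokine genes *Cxcl10* (0.04), *Cxcl9* (-0.20) and *Ccl5* (0.04), which draw T cells to sites of interferon action, did not differ beyond the spread between muscles. However, the signals of *Cxcl10* and *Ccl5* lay below 5.715, where probes respond least. The software marked *Ccl5* as not expressed in MYTHO-KD.

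**Figure D4:**
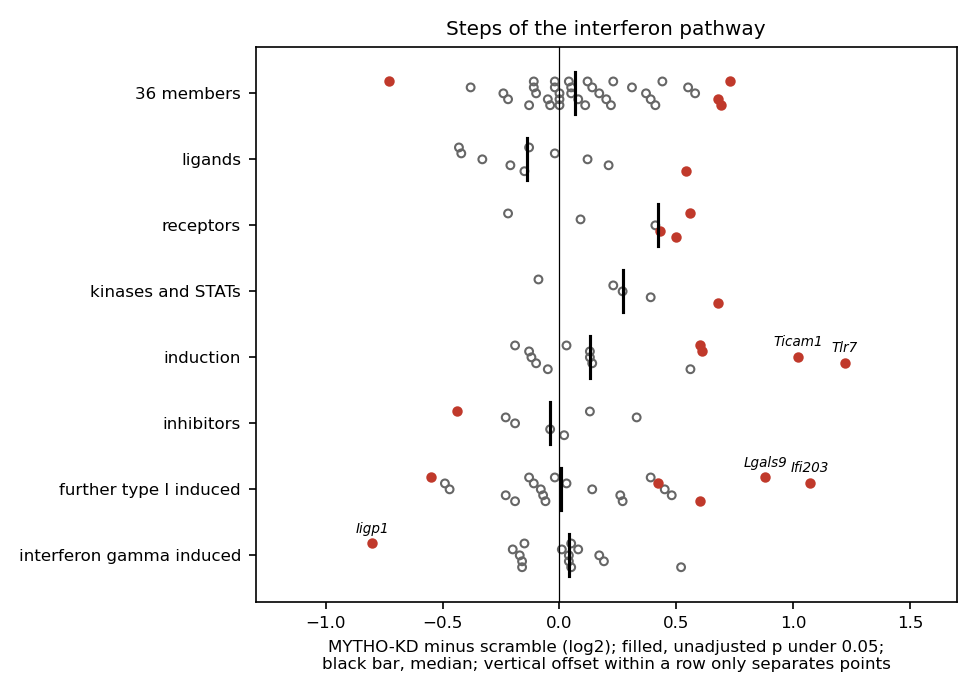
Differences of the 36 members and of the pathway genes by step (x axis, MYTHO-KD minus scramble, log2). Each point is a gene, filled where the unadjusted p is under 0.05, and the black bar is the median of the row. The receptor row has the highest median, 0.42, and the points past 1 belong to *Tlr7*, *Ifi203* and *Ticam1*.

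Muscle also holds immune, vascular and connective tissue cells, and in whole-muscle RNA a change in the number of such cells cannot be told apart from a change in RNA per cell. Of 12 macrophage markers 11 were higher in MYTHO-KD, with a median difference of 0.58, and the mean of their averages was 7.84 in MYTHO-KD and 7.01 in scramble. *Cd68* (2.53) and *Lyz2* (1.94) differed most. Of 6 fibroblast markers all were higher (median 1.13, mean averages 11.55 and 10.53, led by *Bgn* at 1.94 and *Lum* at 1.49), as were all 6 endothelial markers (median 0.45, mean averages 10.59 and 10.12, led by *Kdr* at 0.75 and *Eng* at 0.64). The 12 lymphocyte markers (median -0.16, mean averages 5.59 and 5.70, among them *Cd3d* at -0.32 and *Ms4a1* at -0.31) did not follow. Neither did the 6 neutrophil markers (median -0.10, mean averages 5.18 and 5.30, led by *Ly6g* at -0.42 and *S100a9* at -0.27), nor the 8 dendritic cell markers (median -0.14, mean averages 5.72 and 5.81), of which *Flt3* (-0.35) and *Ccr9* (-0.23) differed most. *Bst2* belongs to that list too, and without it the median was -0.18. The mean of both averages lay below 5.715, where probes respond least, for 7 lymphocyte, 4 neutrophil and 5 dendritic cell markers. This was so for 0 of the macrophage, fibroblast and endothelial markers, so the lists are not equally able to show a difference. *Ifitm2*, *Ifitm3* and *Tlr7* are expressed in several of these cell types, and the part of cell numbers in their differences was not tested. While macrophage markers were higher by a median of 0.58, the 36 interferon-stimulated genes had a median of 0.07.

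**Figure D5:**
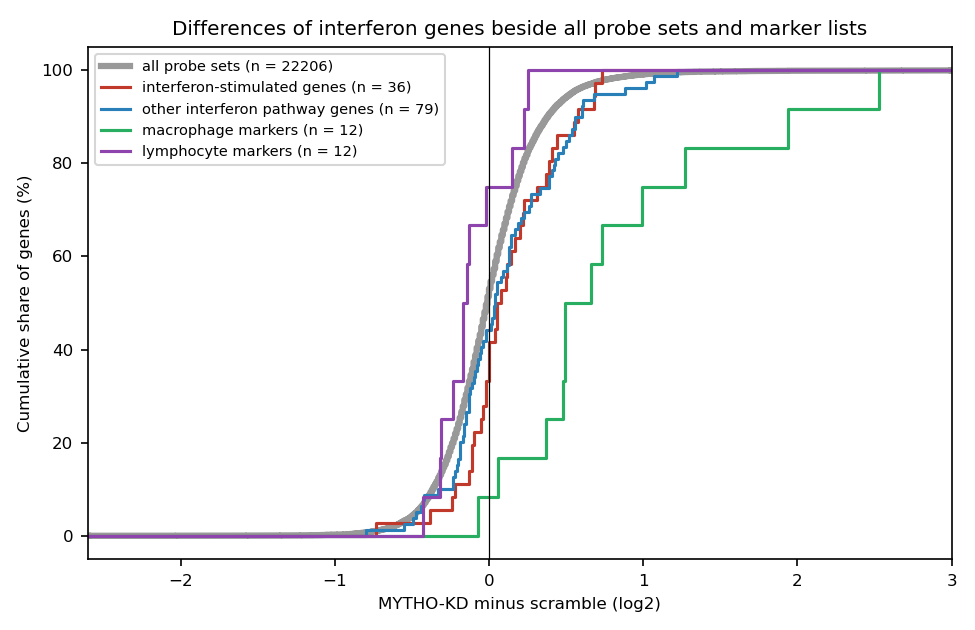
Cumulative share of genes (y axis, %) by their difference between MYTHO-KD and scramble (x axis, log2). The interferon-stimulated genes (red) and the other pathway genes (blue) have medians of 0.07 and 0.04, beside -0.01 for all probe sets (grey). The macrophage markers (green) lie to the right of them, with a median of 0.58.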

How the data were processed

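Total RNA of 8 GAS muscles, 4 per group, was hybridized to Clariom S Mouse arrays. The authors normalized the signals with the SST-RMA method (default settings of the Transcriptome Analysis Console), and the deposited table gives each group's average and SD in log2 units, written with decimal commas, on build mm10. SST-RMA widens the range of low signals, which affects fold sizes. Columns with the authors' own fold changes and p-values were not used, and 0 columns of single arrays were left unused. The kind of average is not given in the sources used here, and if it is not a plain mean the p-values are approximate.

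Each difference is MYTHO-KD minus scramble. Variances of both groups were averaged (6 degrees of freedom) and moderated with squeezeVar of limma 3.58.1 in R 4.3.3 (prior SD 0.284, prior degrees of freedom 5.847), two-sided p-values were adjusted by Benjamini-Hochberg over 22206 probe sets, and the test was tested on simulated data. Each p-value sets a difference against the spread between muscles of a group, moderated by that of all probe sets. The spread between legs within a mouse could not be estimated. Arrays have no depth. The members and lists were chosen with earlier results of these data known. All members are named. Those with an unadjusted p under 0.05 or a 1.5-fold difference get averages, SDs, standard error and adjusted p. Extremes of a group, and pathway genes with an unadjusted p under 0.05, are named, some by their difference only. A few others named for their role were chosen after their values were seen. Alternatives covered moderation, unequal variances, dim probe sets, probe set choice, centring and thresholds. Some genes are not reported here.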

Additional observations from a re-analysis of the deposited data

How the results depend on the processing

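No paired analysis was possible because the table analysed gives 1 average per group, so neither matching both legs of a mouse nor leaving out single arrays was run. With 1.5-fold in place of 2-fold, 4 members (11.1%) were called in place of 0, beside 5.80% of all probe sets. With dim probe sets left out, 27 members were tested and 2 had an unadjusted p under 0.05 in place of 4, because *Oas1a* and *Oas2* fall below the limit. Over 171 pairs of member and setting, 2 changed side of that threshold, both for *Ifitm2*, which missed it without moderation and with unequal variances. The adjusted p stayed above 0.05 in every setting run, at lowest 0.141, for *Oas1a*. The median of the members lay between 0.05 and 0.08. The whole table held 61 calls at an adjusted p under 0.05 with limma's moderation. It held 189 when the prior followed signal in a robust fit, and 2 either without moderation or when variances were kept unequal. The test takes the legs as independent, although they share mice. Signals near the floor, as of *Oasl1* and *Irf7*, limit what can be seen of a fall.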
